A study of Mus musculus with 6 samples.

Results

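Mitochondrial fatty acid oxidation and ketogenesis is represented here by 32 genes, chosen by symbol from the known steps of the pathway and found as 32 of the 29734 rows of the expression table. All 32 passed the filter on low counts, as did 18931 genes in all. Poly(A)-selected liver RNA of male mice was sequenced, in 3 libraries of the Prdx1 C52S genotype (numbered 1, 2 and 4) and 3 of WT (6, 8 and 9). C52S replaces cysteine 52 of peroxiredoxin 1, the peroxide-sensing residue of this thiol peroxidase, with serine. Every mouse, in both groups, received a Western diet, a fatty and sugary feed that produces steatohepatitis, beginning at 8 weeks of age and lasting 20 weeks, so no group on a control diet is part of the comparison. The labels do not state the zygosity of the allele or whether the mice were littermates, and an exchange of 1 amino acid cannot be checked in gene counts. Whole liver was used, so that fewer cells of a type and less RNA per cell cannot be told apart. By its title the study concerns steatohepatitis, and the comparison asks how the transcripts of fat burning differed between the genotypes on that diet.

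Fatty acids enter the mitochondrial matrix as carnitine esters after activation to acyl-CoA, and Cpt1a, the outer-membrane carnitine palmitoyltransferase, sets the rate of this entry. In the matrix each turn of the beta-oxidation spiral runs through an acyl-CoA dehydrogenase, a hydratase, a hydroxyacyl-CoA dehydrogenase and a thiolase, and the electrons pass through the electron transfer flavoprotein to the respiratory chain. In liver much of the acetyl-CoA leaves as ketone bodies, and PPAR-alpha with its coactivator PGC-1alpha controls many of these genes.

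Most members, including all 6 acyl-CoA dehydrogenases and all 3 electron transfer genes, had higher values in Prdx1 C52S livers. None of the 4 genes of the carnitine shuttle was higher at an unadjusted p under 0.05, beside 11.5% of all genes tested. The mean FPKM (defined below) was lower in Prdx1 C52S for 9 members. These were the entry and activation genes Cpt1a, Slc22a5, Acsl1, Acsl4 and Acsm3, and Hadhb, Eci2, Acot13 and Ppargc1a. Of those 9, only Acsl4 had an unadjusted p under 0.05 with all 6 libraries. With all 6 libraries, 28 of the 32 members had a positive log2 fold change, Prdx1 C52S over WT, with a median of 0.48 against -0.03 over all genes tested. With library totals in place of TMM scaling 23 were positive, and in both fits 29 of the 32 lay above the median of all genes. At an unadjusted p under 0.05, 17 members were higher, beside 11.5% of all genes tested, and 1 was lower, beside 14.8%. None passed the edgeR quasi-likelihood test adjusted over all genes, where 0 genes (0%) were called in either direction. The smallest adjusted p among the members was 0.0894 (Acsl4), and over all genes it was 0.0553. DESeq2 on the same counts called 12 members higher, beside 7.39% of all genes, and 1 lower, beside 9.1%. Without WT 8, a library that stands apart, edgeR called 8 members higher (Acsl3, Acsl5, Acsm5, Acadm, Acad11, Echs1, Eci1 and Etfdh), beside 2.7% of genes, and 1 lower (Slc22a5), beside 1.94%. Leaving out Prdx1 C52S 1, 2 or 4 reduced the 17 higher members at an unadjusted p under 0.05 to 9, 8 and 8, beside 8.12%, 6.79% and 7.16% of all genes in those fits.

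WT 8 had the lowest FPKM of the 6 libraries for 27 of the 32 members. FPKM, fragments scaled to transcript length and library depth, is the unit in which levels are given throughout. Summed over the members it was 2213, 2115 and 2133 in Prdx1 C52S 1, 2 and 4, against 2024, 1597 and 1979 in WT 6, 8 and 9. The groups did not overlap in this sum, WT 6 and WT 9 lay close below the Prdx1 C52S libraries and WT 8 lay far below. The same library stood apart in other cell types: summed markers of bile duct cells were highest there, at 998 FPKM, with 393 for WT 6 and 256 for WT 9, and markers of pericentral hepatocytes at 1211 beside 3159 and 3050. The summed hepatocyte markers, led by Alb and Apoa2, were at 42075 FPKM in WT 8, 43039 in WT 6 and 43573 in WT 9. Between the groups, the 14 pericentral genes, led by Cyp2e1 and Rgn, summed to 4188 to 4948 FPKM in Prdx1 C52S and 1211 to 3159 in WT. At an unadjusted p under 0.05, 7 of them were higher and 0 lower, beside 11.5% and 14.8% of all genes tested. The 16 hepatocyte genes summed to 43616 to 46640 FPKM in Prdx1 C52S and 42075 to 43573 in WT, with 4 higher and 0 lower. With library totals 3 were higher and 6 lower, beside 3.73% and 30.4% of all genes tested. With that scaling 6 of the 16 were positive, beside 21.9% of all genes. Alb averaged 21401 FPKM in Prdx1 C52S and 18709 in WT, and Apoa2 averaged 6817 in Prdx1 C52S and 4619 in WT. Both genes together make up most of the sum, which therefore does not give the direction of the other hepatocyte markers. Over 13 periportal genes the sum was 23554 to 24800.5 FPKM in Prdx1 C52S and 20951 to 22206 in WT, with 3 higher and 1 lower, and 1 higher and 4 lower with library totals. With that scaling 5 pericentral genes were higher and 0 lower. No gene of these 3 lists was at 0 in every library, and their part in the members' values was not tested.

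The scale matters for the direction of small differences. TMM factors, which correct library sizes for their composition, were between 0.883 and 0.92 in Prdx1 C52S and between 1.03 and 1.28 in WT, so a gene of equal FPKM receives a positive fold change. With library totals alone the median of all genes moved to -0.34 and that of the members to 0.20. The distance between both medians was 0.52 with TMM and 0.54 with library totals, and the members at an unadjusted p under 0.05 were then 8 higher, beside 3.73% of genes, and 2 lower, beside 30.4%. On the FPKM scale, where no TMM factor enters, the groups did not overlap for 14 members that were higher in Prdx1 C52S, beside 6.09% of all genes tested, and for 2 that were lower, beside 36.7%. The median ratio of mean FPKM over the members was 1.16, from 0.539 for Acsl4 to 1.56 for Acadl.

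**Figure D1:**
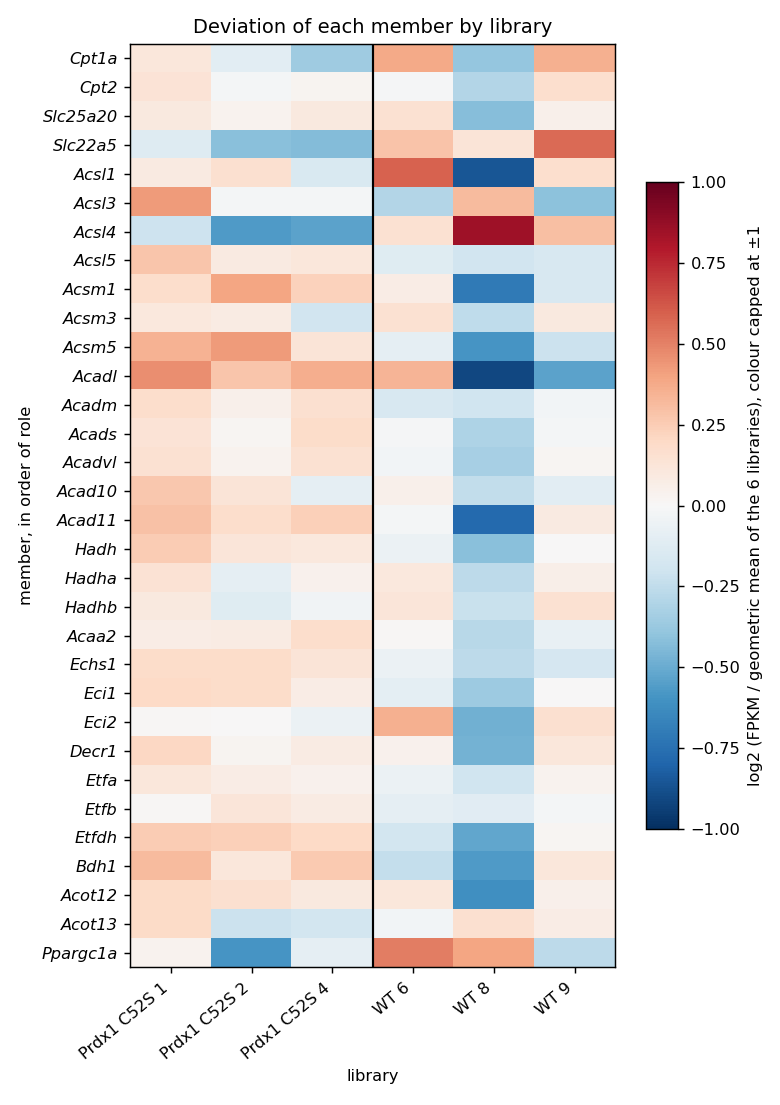
Deviation of each of the 32 members (rows, in order of role) in each library (columns) as the log2 of its FPKM over the geometric mean of the 6 libraries, red above and blue below. WT 8 is the lowest library for 27 members, and Acsl4 is high there.

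None of the 4 carnitine shuttle genes was higher in Prdx1 C52S at an unadjusted p under 0.05, beside 11.5% of all genes tested. Their difference from the other roles was not tested. Cpt1a had 63.6, 54.7 and 46.0 FPKM in Prdx1 C52S 1, 2 and 4, against 76.4, 44.9 and 75.4 in WT 6, 8 and 9. The groups overlapped, with WT 8 at the low end and WT 6 and WT 9 above all Prdx1 C52S libraries. The fitted log2 fold change came to -0.01 (SE 0.30, edgeR adjusted p = 0.986) with all libraries, -0.28 (SE 0.13, edgeR adjusted p = 0.242) without WT 8 and -0.27 with library totals. Cpt2, the inner-membrane transferase that releases the acyl-CoA in the matrix, averaged 47.8 ± 2.74 FPKM in Prdx1 C52S and 45.1 ± 7.11 in WT (SD, n = 3 each). Slc25a20, the carnitine-acylcarnitine translocase of the inner membrane, averaged 22.3 ± 0.554 FPKM in Prdx1 C52S and 20.4 ± 4.1 in WT (SD, n = 3 each). Their log2 fold changes were 0.35 (SE 0.19) and 0.39 (SE 0.22), and each was 0.16 without WT 8. After TMM scaling every Prdx1 C52S library was above every WT library in both genes, while in FPKM the groups overlapped.

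Slc22a5, the plasma membrane carnitine transporter OCTN2, was the lower gene of this group. It had 7.98, 6.51 and 6.45 FPKM in Prdx1 C52S 1, 2 and 4, against 10.6, 9.52 and 12.9 in WT 6, 8 and 9. In FPKM every WT library was above every Prdx1 C52S library, as was the case for 36.7% of all genes tested. After TMM scaling, which the fold change below uses, the groups of Slc22a5 overlapped, with Prdx1 C52S 1 above WT 8. edgeR put the log2 fold change at -0.39 (SE 0.19, edgeR adjusted p = 0.243) with all libraries. Without WT 8 the gene fell, by 0.56 on the log2 scale (SE 0.13, edgeR adjusted p = 0.0497), and without WT 9 its value was -0.19.

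Acyl-CoA synthetases activate fatty acids, and the 4 long-chain members had different directions. Acsl1, the main long-chain synthetase of hepatocytes, averaged 56.4 ± 6.2 FPKM in Prdx1 C52S and 58.1 ± 26.3 in WT (SD, n = 3 each), with 82.5 in WT 6 and 30.3 in WT 8. The fitted log2 fold change of 0.19 (SE 0.40) was 0.58 without WT 6 and -0.16 without WT 8. Acsl5, a synthetase of the endoplasmic reticulum and mitochondria, had 109, 95.7 and 97.8 FPKM in Prdx1 C52S 1, 2 and 4, against 82.8, 79.0 and 80.5 in WT 6, 8 and 9. All Prdx1 C52S libraries were above all WT libraries, and the WT libraries, WT 8 included, lay close together. The fitted log2 fold change came to 0.60 (SE 0.15, edgeR adjusted p = 0.0954), and Acsl5 rose by 0.49 (SE 0.09, edgeR adjusted p = 0.0291) without WT 8. Acsl3, a synthetase found on lipid droplets and the endoplasmic reticulum, had 10.6, 7.77 and 7.78 FPKM in Prdx1 C52S 1, 2 and 4, against 6.41, 9.8 and 5.93 in WT 6, 8 and 9. Here WT 8 was the high WT library and the groups overlapped in FPKM. The fitted difference was, on the log2 scale, 0.55 (SE 0.16, edgeR adjusted p = 0.106), and 0.69 (SE 0.14, edgeR adjusted p = 0.0428) without WT 8. With library totals it was 0.23. The retrogene Utp14b lies on the same strand within the Acsl3 locus, and reads of both may not have been told apart.

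Acsl4, which prefers arachidonate and other long polyunsaturated chains, had lower values in Prdx1 C52S. It had 12.9, 10.1 and 10.3 FPKM in Prdx1 C52S 1, 2 and 4, against 16.6, 26.9 and 18.4 in WT 6, 8 and 9. The groups did not overlap, and WT 8 was the highest library. The log2 ratio of the groups was -0.58 (SE 0.14, edgeR adjusted p = 0.0894). It was -0.46 without WT 8 (SE 0.12, edgeR adjusted p = 0.0651) and -0.69 without Prdx1 C52S 1, and DESeq2 called it lower (adjusted p = 0.00709). Summed markers of 4 other liver cell types were also lower in every Prdx1 C52S library than in any WT library. In FPKM, 36.7% of all genes tested showed the same separation, Acsl4 included. Over 17 Kupffer cell and macrophage genes, led by Cd5l and Lyz2, the summed FPKM was 363 to 395 in Prdx1 C52S and 504 to 701 in WT. At an unadjusted p under 0.05, 8 genes were lower and 0 higher, beside 14.8% and 11.5% of all genes tested. Of the 17, 5 had positive log2 fold changes. Cd5l averaged 123 FPKM in each group, with 28.0 in WT 8 and a log2 fold change of 0.21. Lyz2 averaged 118 FPKM in Prdx1 C52S and 302 in WT, with a log2 fold change of -1.06. Over 16 bile duct genes, led by Spp1 and Tspan8, the summed FPKM was 74.5 to 148 in Prdx1 C52S and 256 to 998 in WT, and 15 genes were lower. The 10 T and NK cell genes, led by Nkg7 and Trac, summed to 1.93 to 3.12 FPKM in Prdx1 C52S and 5.52 to 11.8 in WT. The 12 stellate cell genes, led by Dcn and Colec11, summed to 106 to 135 FPKM in Prdx1 C52S and 150.3 to 225 in WT, with 6 genes lower. Of these 12, 4 had positive log2 fold changes, and Dcn and Colec11 were at -0.15 and 0.14. The 11 sinusoidal endothelial genes, led by Eng and Clec4g, summed to 83.8 to 94.9 in Prdx1 C52S and 68.4 to 114 in WT, with 2 lower. With library totals 10 Kupffer cell and macrophage, 16 bile duct, 8 T and NK cell, 8 stellate cell and 2 sinusoidal endothelial genes were lower. The share of all genes tested that were lower was then 30.4%. No marker of these 5 lists was at 0 in every library, and their part in the Acsl4 value was not tested.

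Medium-chain synthetases, a family expressed mainly in liver and kidney, form a cluster on chromosome 7, with all 3 members on the plus strand and the starts of Acsm5 and Acsm1 87563 bases apart. Acsm5 had 42.1, 44.6 and 36.1 FPKM in Prdx1 C52S 1, 2 and 4, against 31.1, 21.95 and 28.5 in WT 6, 8 and 9. No library of one group reached the other. On the log2 scale the difference was 0.86 (SE 0.22, edgeR adjusted p = 0.094), and the gene rose by 0.65 (SE 0.11, edgeR adjusted p = 0.0276) without WT 8. Acsm1 had 97.5, 113 and 101 FPKM in Prdx1 C52S 1, 2 and 4, against 90.7, 52.7 and 77.1 in WT 6, 8 and 9. The groups again did not overlap, although WT 6 came close, and the log2 fold change of 0.76 (SE 0.27, edgeR adjusted p = 0.139) was 0.50 without WT 8. Acsm3, the third gene of the cluster, averaged 23.3 ± 2.6 FPKM in Prdx1 C52S and 23.3 ± 3.39 in WT (SD, n = 3 each). Its log2 fold change in edgeR was 0.26 (SE 0.20) with TMM and -0.01 with library totals.

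The start regions of the 3 synthetase genes with the smallest p-values are given to show the sequence behind a gene that was lower and a pair that were higher. RefSeq windows on GRCm38.p6, from 250 bases before to 50 bases after the annotated start, matched 29 of the 32 members. They were searched on both strands for direct repeat 1, the element to which PPAR-alpha with its partner RXR binds, written as the half-site AGGTCA followed by 1 free base and a second AGGTCA, with up to 2 mismatches in the 12 fixed bases. None of the following 3 windows holds such a match, so all letters are in lower case; each is written 5′ to 3′ on the strand of the gene. The Acsl4 window is chrX:142390486-142390785 on the minus strand, the Acsl5 window chr19:55253119-55253418 on the plus strand and the Acsm5 window chr7:119526015-119526314 on the plus strand. The RefSeq starts of Acsl5 and Acsm5 lie 1431 and 6802 bases from the outermost start of the gene in GENCODE M21.
Acsl4: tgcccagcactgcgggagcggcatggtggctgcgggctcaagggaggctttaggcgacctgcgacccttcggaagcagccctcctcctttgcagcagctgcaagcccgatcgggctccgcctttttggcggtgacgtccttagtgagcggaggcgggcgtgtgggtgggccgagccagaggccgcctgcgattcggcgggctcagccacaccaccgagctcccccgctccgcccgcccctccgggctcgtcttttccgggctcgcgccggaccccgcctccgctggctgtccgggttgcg
Acsl5: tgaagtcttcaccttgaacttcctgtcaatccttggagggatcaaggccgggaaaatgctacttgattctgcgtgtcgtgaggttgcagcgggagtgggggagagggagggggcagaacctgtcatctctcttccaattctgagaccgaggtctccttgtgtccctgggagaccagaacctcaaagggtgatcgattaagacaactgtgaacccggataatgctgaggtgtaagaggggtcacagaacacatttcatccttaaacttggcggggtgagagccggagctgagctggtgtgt
Acsm5: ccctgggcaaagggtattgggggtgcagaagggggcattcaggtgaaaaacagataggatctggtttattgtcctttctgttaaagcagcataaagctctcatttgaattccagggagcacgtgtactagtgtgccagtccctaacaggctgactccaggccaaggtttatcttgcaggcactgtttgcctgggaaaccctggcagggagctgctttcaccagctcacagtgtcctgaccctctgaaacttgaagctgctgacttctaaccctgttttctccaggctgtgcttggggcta

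**Figure D2:**
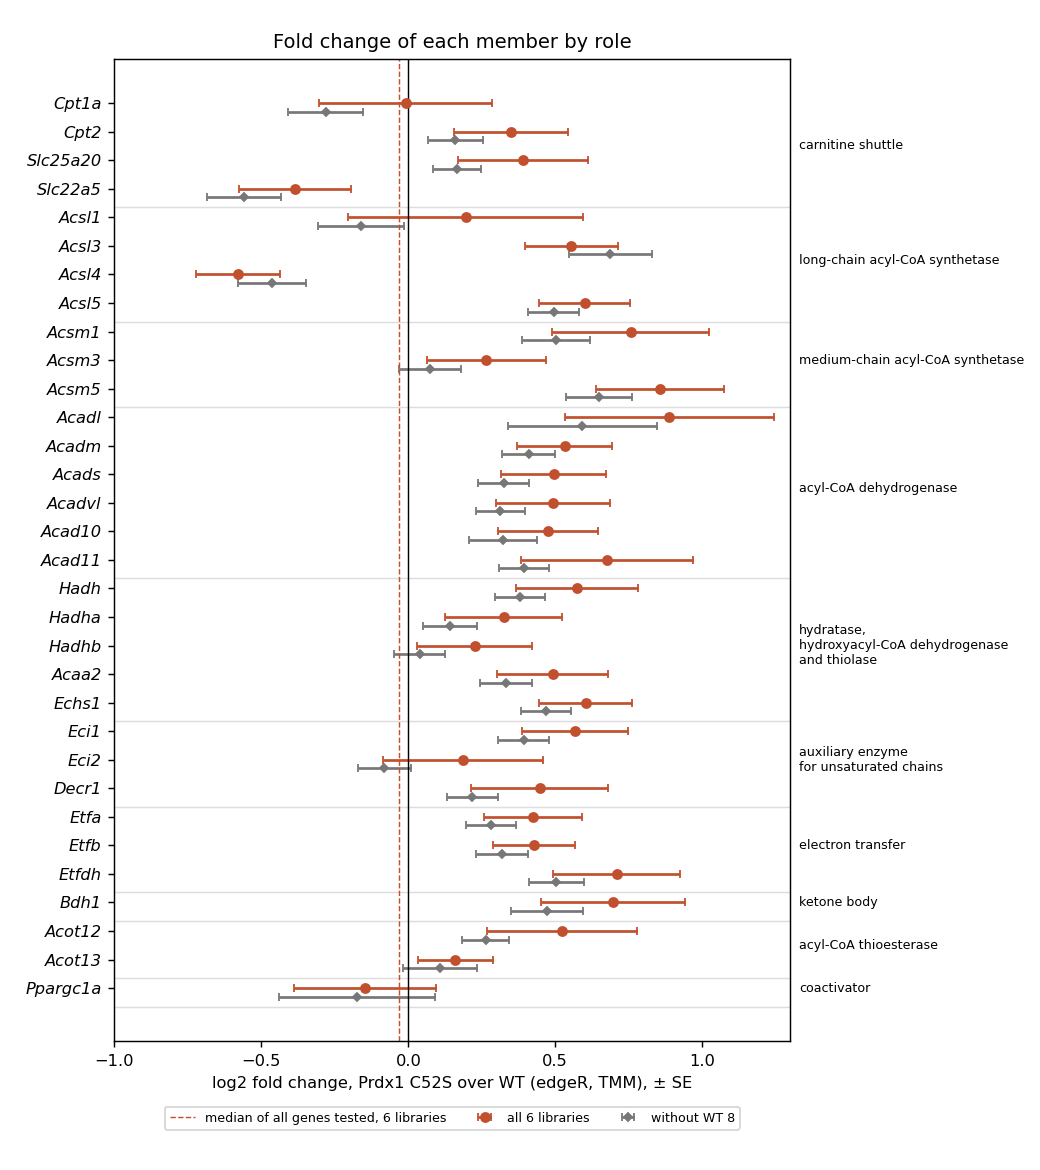
Log2 fold change, Prdx1 C52S over WT, of each member by role from edgeR with TMM scaling, with its SE. Round points are the fit with all 6 libraries and diamonds the fit without WT 8, and the dashed line is the median of all genes tested (-0.03). All 6 acyl-CoA dehydrogenases and all 3 electron transfer genes lie to the right of 0 in both fits, while Slc22a5 and Acsl4 lie to the left.

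Acyl-CoA dehydrogenases, which open each turn of the spiral, had positive log2 fold changes in all 6 members, the median being 0.51 (0.36 when WT 8 was left out and 0.23 with library totals). At an unadjusted p under 0.05, 5 of the 6 were higher. Acadm, the medium-chain dehydrogenase, had 95.9, 87.7 and 95.0 FPKM in Prdx1 C52S 1, 2 and 4, against 76.1, 74.0 and 83.5 in WT 6, 8 and 9. The libraries of both groups were separate and WT 8 was close to WT 6. edgeR put the log2 fold change at 0.53 (SE 0.16, edgeR adjusted p = 0.112), and the gene rose by 0.41 (SE 0.09, edgeR adjusted p = 0.0476) without WT 8. Acadl, the long-chain dehydrogenase, had 98.9, 86.8 and 92.0 FPKM in Prdx1 C52S 1, 2 and 4, against 90.7, 38.1 and 49.6 in WT 6, 8 and 9. One WT library, WT 6, lay within the Prdx1 C52S range and the other two lay far below. The log2 fold change of 0.89 (SE 0.36, edgeR adjusted p = 0.174) was 1.39 without WT 6 and 0.59 (SE 0.25) without WT 8. Acadl shares its strand with the gene model Gm15793, whose reads may not have been told apart.

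Acads, the short-chain dehydrogenase, had 74.2, 68.1 and 76.6 FPKM in Prdx1 C52S 1, 2 and 4, against 66.7, 54.3 and 66.5 in WT 6, 8 and 9. Acadvl, the membrane-bound very-long-chain dehydrogenase, had 130, 120 and 130 FPKM in Prdx1 C52S 1, 2 and 4, against 115, 92.8 and 118 in WT 6, 8 and 9. In both genes the lowest Prdx1 C52S library was just above the highest WT library. Both log2 fold changes were 0.49 (SE 0.18 and 0.20, edgeR adjusted p = 0.144 and 0.169). Acad11, a dehydrogenase of the same family, had 41.5, 38.4 and 40.1 FPKM in Prdx1 C52S 1, 2 and 4, against 33.4, 19.7 and 36.0 in WT 6, 8 and 9. WT 8 was again far below, and all WT libraries were under the Prdx1 C52S ones. With all libraries its log2 fold change stood at 0.68 (SE 0.29, edgeR adjusted p = 0.195), and without WT 8 Acad11 rose by 0.39 (SE 0.09, edgeR adjusted p = 0.0468). Acad10, also of this family, had 7.84, 7.12 and 6.11 FPKM in Prdx1 C52S 1, 2 and 4, against 6.76, 5.48 and 6.06 in WT 6, 8 and 9. These groups overlapped, and the log2 fold change came to 0.48 (SE 0.17, edgeR adjusted p = 0.142).

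Downstream of the dehydrogenases, the hydratase, hydroxyacyl-CoA dehydrogenase and thiolase genes divided into 3 at an unadjusted p under 0.05 and the 2 subunits of the trifunctional protein, which were not. Echs1, the short-chain enoyl-CoA hydratase, had 28.9, 29.0 and 27.9 FPKM in Prdx1 C52S 1, 2 and 4, against 24.5, 21.2 and 22.7 in WT 6, 8 and 9. The groups were separate and the Prdx1 C52S libraries lay within a narrow band. The fitted log2 fold change came to 0.60 (SE 0.16, edgeR adjusted p = 0.0965), and without WT 8 the gene rose by 0.47 (SE 0.08, edgeR adjusted p = 0.0301). Hadh, the medium- and short-chain hydroxyacyl-CoA dehydrogenase, had 72.6, 66.0 and 65.3 FPKM in Prdx1 C52S 1, 2 and 4, against 58.5, 45.4 and 60.8 in WT 6, 8 and 9. Its groups did not overlap and WT 8 was the lowest library, with a log2 fold change of 0.57 (SE 0.21, edgeR adjusted p = 0.143) and 0.38 without WT 8. Acaa2, the medium-chain 3-ketoacyl-CoA thiolase, was the most abundant member, at 432, 436 and 464 FPKM in Prdx1 C52S 1, 2 and 4, against 414, 339 and 391 in WT 6, 8 and 9. Its groups were separate by a small margin, and the log2 fold change came to 0.49 (SE 0.19, edgeR adjusted p = 0.16).

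Hadha and Hadhb encode the alpha and beta subunits of the trifunctional protein, which handles long-chain intermediates at the inner membrane. Hadha averaged 33.3 ± 2.7 FPKM in Prdx1 C52S and 32.02 ± 4.25 in WT, and Hadhb averaged 27.6 ± 2.1 in Prdx1 C52S and 28.4 ± 3.93 in WT (SD, n = 3 each). The groups overlapped in both genes. Their log2 fold changes were 0.32 (SE 0.20) and 0.23 (SE 0.20), and 0.14 and 0.04 without WT 8. With library totals they were 0.05 and -0.05, so Hadhb changes sign there. The genes lie head to head on chromosome 5 of GRCm38, Hadha on the minus strand from 30118304 to 30155162 and Hadhb on the plus strand from 30155248 to 30184593, and their starts are 86 bases apart.

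The region between both genes is shown because their GENCODE starts lie in it, while the RefSeq start of Hadha, at 30154980, lies 182 bases from its GENCODE start and outside it. The sequence is the RefSeq Hadhb window, chr5:30155003-30155302 on the plus strand, and the 87 capitals run from the GENCODE start of Hadha to that of Hadhb. The Echs1 window, chr7:140116372-140116671 on the minus strand, is shown because it holds a direct repeat 1 with 2 mismatches, which is in capitals.
Hadha and Hadhb: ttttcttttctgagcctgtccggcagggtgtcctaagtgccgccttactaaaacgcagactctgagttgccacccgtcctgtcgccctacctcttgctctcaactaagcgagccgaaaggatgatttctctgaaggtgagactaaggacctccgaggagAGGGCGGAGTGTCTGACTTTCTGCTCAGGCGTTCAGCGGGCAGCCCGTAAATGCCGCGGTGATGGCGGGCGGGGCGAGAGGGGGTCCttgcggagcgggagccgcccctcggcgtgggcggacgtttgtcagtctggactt
Echs1: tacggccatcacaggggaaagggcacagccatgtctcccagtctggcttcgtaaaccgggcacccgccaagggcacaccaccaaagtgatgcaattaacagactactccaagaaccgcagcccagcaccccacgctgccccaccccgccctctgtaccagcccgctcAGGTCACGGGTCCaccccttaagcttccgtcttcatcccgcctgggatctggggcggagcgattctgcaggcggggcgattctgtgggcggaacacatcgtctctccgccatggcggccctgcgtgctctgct
Such a match was found in the windows of 4 of the 29 members (Acot12 with 1 mismatch, Echs1, Etfa and Slc25a20 with 2), or 13.8%, against 4.4% of 27025 genes with a window. In Acot12 the match, TGACCTCTCACCT as read on the strand of the gene, begins 110 bases before the start. In Slc25a20 it is AGGTGAAAGGTCG. Of these 4 genes, Echs1 and Etfa were higher at an unadjusted p under 0.05, beside 53.1% of all members and 11.5% of all genes tested. Whether a match goes with higher values was not tested. The windows of the members had a median of 60.7% G and C, against 52.7% over all 32851 windows.

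Auxiliary enzymes bring unsaturated chains into the spiral by moving or reducing their double bonds. Eci1, the mitochondrial enoyl-CoA isomerase, had 59.4, 58.5 and 54.4 FPKM in Prdx1 C52S 1, 2 and 4, against 48.3, 40.1 and 51.7 in WT 6, 8 and 9. All Prdx1 C52S libraries lay above the WT libraries. The fitted difference was, on the log2 scale, 0.57 (SE 0.18, edgeR adjusted p = 0.12), and Eci1 rose by 0.39 (SE 0.09, edgeR adjusted p = 0.0481) without WT 8. Eci2, an isomerase found in mitochondria and peroxisomes, averaged 28.8 ± 0.79 FPKM in Prdx1 C52S and 30.1 ± 8.42 in WT (SD, n = 3 each), with a log2 fold change of 0.19 (SE 0.27) that was -0.08 without WT 8 and -0.07 with library totals. Decr1, the 2,4-dienoyl-CoA reductase, averaged 51.7 ± 3.34 FPKM in Prdx1 C52S and 45.4 ± 9.35 in WT (SD, n = 3 each), with overlapping groups and a log2 fold change of 0.45 (SE 0.23, edgeR adjusted p = 0.264).

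Electron transfer genes were higher in all 3 members at an unadjusted p under 0.05, and in each the groups did not overlap. Etfdh, the oxidoreductase that passes electrons to ubiquinone, had 36.1, 35.7 and 34.9 FPKM in Prdx1 C52S 1, 2 and 4, against 26.7, 21.1 and 30.6 in WT 6, 8 and 9. The Prdx1 C52S libraries differed little from each other, while WT 8 was the lowest library. The log2 ratio of the groups was 0.71 (SE 0.22, edgeR adjusted p = 0.115), and Etfdh rose by 0.50 (SE 0.09, edgeR adjusted p = 0.0328) without WT 8. Etfa, the alpha subunit of the flavoprotein, had 158, 154 and 150.4 FPKM in Prdx1 C52S 1, 2 and 4, against 140.2, 127 and 149.9 in WT 6, 8 and 9. The margin between Prdx1 C52S 4 and WT 9 was small. Etfb, the beta subunit, had 139, 150.1 and 146 FPKM in Prdx1 C52S 1, 2 and 4, against 129, 128 and 136 in WT 6, 8 and 9. Both subunits stood at similar levels in FPKM within each library. The log2 fold changes were 0.42 (SE 0.17, edgeR adjusted p = 0.167) for Etfa and 0.43 (SE 0.14, edgeR adjusted p = 0.124) for Etfb, and with library totals each was 0.14.

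Bdh1, which interconverts acetoacetate and beta-hydroxybutyrate, is the ketone body gene of the set. It had 81.6, 71.1 and 78.7 FPKM in Prdx1 C52S 1, 2 and 4, against 55.7, 44.2 and 71.1 in WT 6, 8 and 9. WT 9 reached the lowest Prdx1 C52S library, so the groups overlapped in FPKM, and WT 8 was the lowest. On the log2 scale the difference was 0.70 (SE 0.24, edgeR adjusted p = 0.137), 0.47 (SE 0.12, edgeR adjusted p = 0.0695) without WT 8 and 0.95 without WT 9.

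Thioesterases release free acids from acyl-CoA. Acot12, the cytosolic acetyl-CoA hydrolase of liver, averaged 30.7 ± 0.999 FPKM in Prdx1 C52S and 25.5 ± 6.43 in WT (SD, n = 3 each), with 18.1 in WT 8. Its fitted difference was 0.52 on the log2 scale (SE 0.25), and 0.26 without WT 8. Acot13, a thioesterase associated with mitochondria, averaged 61.8 ± 10.1 FPKM in Prdx1 C52S and 67.5 ± 4.38 in WT (SD, n = 3 each), with a log2 fold change of 0.16 (SE 0.13) that was -0.14 with library totals. Ppargc1a, the coactivator PGC-1alpha, had 1.25, 0.809 and 1.15 FPKM in Prdx1 C52S 1, 2 and 4, against 1.74, 1.6 and 1.02 in WT 6, 8 and 9. Its groups overlapped, and the log2 fold change came to -0.15 (SE 0.24, edgeR adjusted p = 0.735). Ppargc1a was the least abundant member, and 28 of the 32 had a mean of at least 10 FPKM in both groups.

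**Figure D3:**
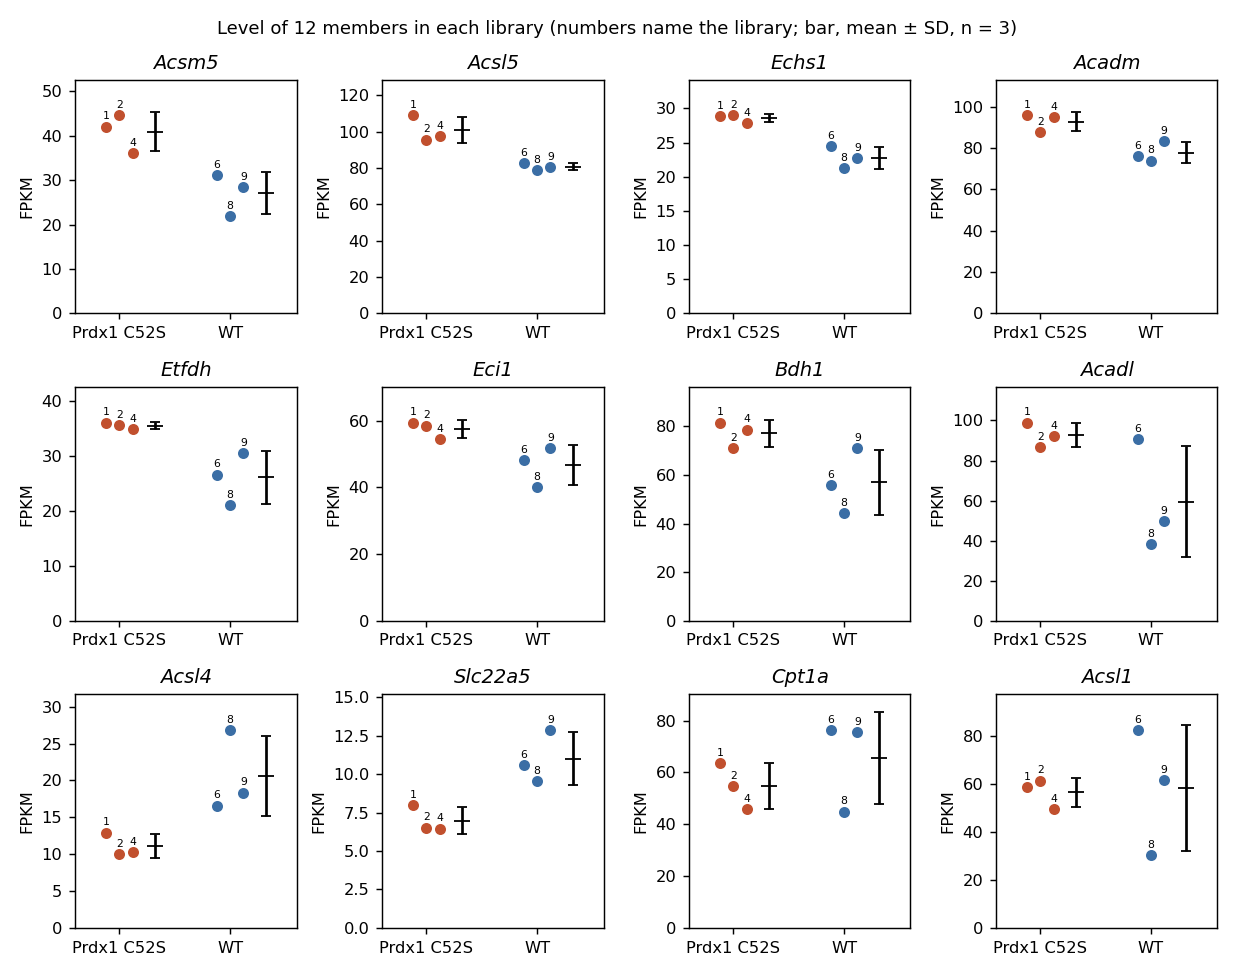
FPKM of 12 members in each library, on axes from 0, with the mean and SD of the 3 libraries of a group beside the points. Acsm5, Acsl5, Echs1, Acadm, Etfdh and Eci1 are separate and higher in Prdx1 C52S, Acsl4 and Slc22a5 are separate and lower, and Bdh1, Acadl, Cpt1a and Acsl1 overlap between the groups.

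The spread within the groups differed as well, since 28 of the 32 members had a smaller SD of FPKM in Prdx1 C52S than in WT. In Acadl the SD was 6.07 FPKM in Prdx1 C52S and 27.7 in WT, and in Acsl1 it was 6.2 in Prdx1 C52S and 26.3 in WT. Acsl5 was an exception, with 7.14 in Prdx1 C52S and 1.93 in WT. With WT 8 the lowest library in most members, this difference in spread was not tested further.

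Of 37 tested genes that act beside the members in acyl-CoA and ketone metabolism, 14 were higher and 4 lower at an unadjusted p under 0.05, and the median on the log2 scale was 0.39. With library totals 6 were higher and 8 lower, and without WT 8, 8 rose and 0 fell. The 4 with the smallest p were Acot9, a mitochondrial thioesterase, at 3.52 ± 0.709 FPKM in Prdx1 C52S and 7.42 ± 1.8 in WT (SD, n = 3 each), Acad8 and Ivd, better known as dehydrogenases of branched-chain amino acid breakdown, and Acat2, the cytosolic acetoacetyl-CoA thiolase. Their log2 fold changes were -0.76 for Acot9, 0.54 for Acad8, 0.45 for Ivd and 0.61 for Acat2, and the last 3 rose without WT 8 (edgeR adjusted p = 0.0476 for Acad8, 0.0369 for Ivd and 0.0484 for Acat2). All 34 nuclear genes of the respiratory chain that were listed had positive log2 fold changes, with a median of 0.38, and 25 were higher at an unadjusted p under 0.05, among them Sdhb (0.54), Sdhd (0.50), Ndufv1 (0.47) and Ndufb5 (0.39). Without WT 8, 3 of them rose, and with library totals 26 of the 34 were positive, 2 were higher at an unadjusted p under 0.05 and the median was 0.09. All 15 genes of the tricarboxylic acid cycle were positive too, with a median of 0.35, and 8 were higher at an unadjusted p under 0.05. The leading genes were Sucla2 (0.57), citrate synthase Cs (0.62), Sdhb, which belongs to both lists, and Suclg1 (0.49), and 4 genes of the list rose without WT 8. With library totals 8 of the 15 were positive and the median was 0.05. For comparison with these lists, 11.5% of all genes tested were higher and 14.8% lower with TMM, with a median of -0.03. With library totals 3.73% of all genes were higher and 30.4% lower, 21.9% were positive and the median was -0.34.

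Regulators of the pathway had a median of 0.06 over 22 genes, with 5 higher and 1 lower at an unadjusted p under 0.05. With library totals 1 was higher and 3 lower, and the median was -0.25, against -0.34 over all genes tested. Ppara itself averaged 28.1 ± 4.14 FPKM in Prdx1 C52S and 24.6 ± 7.01 in WT (SD, n = 3 each), with a log2 fold change of 0.44 (SE 0.29, edgeR adjusted p = 0.372). The 4 with the smallest p were Tfam, which maintains mitochondrial DNA (0.38), the mitochondrial deacylases Sirt3 (0.53) and Sirt5 (0.35), and the lipid droplet protein Cidea (1.93), none of them called without WT 8. Among 33 genes known to respond to PPAR-alpha, 9 were higher and 2 lower at an unadjusted p under 0.05 (5 and 4 with library totals), and their median of 0.48 became 0.23 once WT 8 was left out. Me1, malic enzyme, better known as a lipogenic gene, was at 116 ± 8.83 FPKM in Prdx1 C52S and 52.6 ± 9.57 in WT, and Ehhadh, the peroxisomal bifunctional enzyme, at 125 ± 14.5 in Prdx1 C52S and 94.1 ± 11.7 in WT (SD, n = 3 each). The log2 fold changes were 1.40 for Me1 and 0.70 for Ehhadh, and both rose without WT 8. Slc27a1, a fatty acid transport protein of muscle and fat, was at -1.53 and fell without WT 8 (edgeR adjusted p = 0.0233), and Txnip, better known as a glucose-responsive gene, was at -1.19. The list shares 3 genes with that of acyl-CoA and ketone metabolism and 2 with the regulators.

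**Figure D4:**
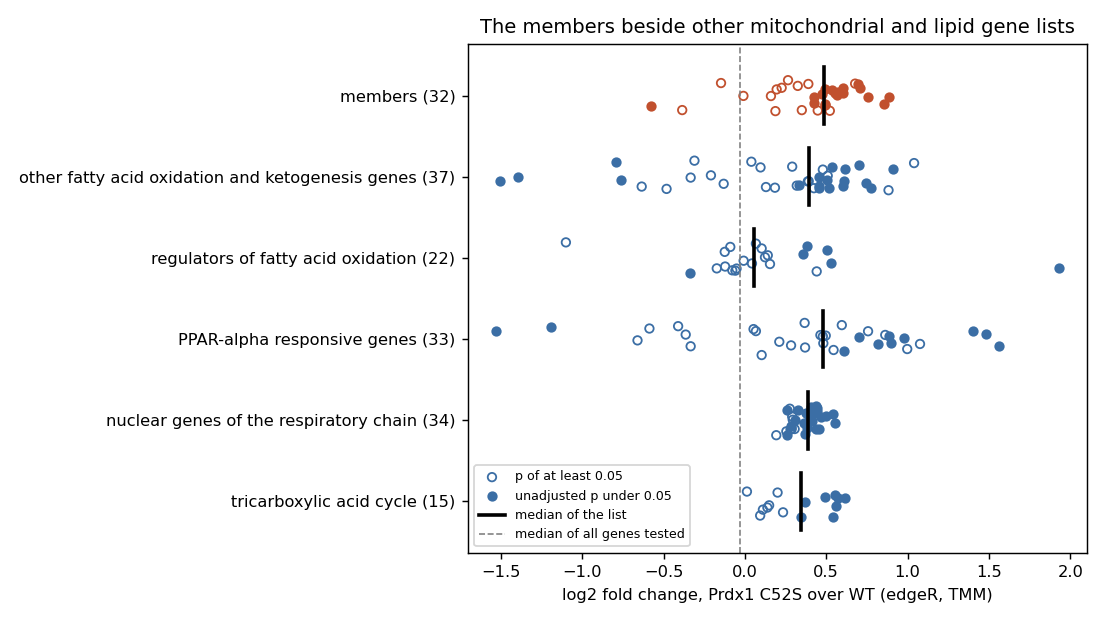
Log2 fold change, Prdx1 C52S over WT, of the 32 members and of the tested genes of 5 further lists (number of genes in brackets), 1 point a gene, filled where the unadjusted p is under 0.05. Black bars are the medians, from 0.06 for the regulators to 0.48 for the members and the PPAR-alpha responsive genes, and the dashed line is the median of all genes tested (-0.03).

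Reads of overlapping genes may not have been told apart. In GENCODE M21, 9 of the 32 members overlap a neighbour transcribed in the same sense and 15 one transcribed in the opposite sense, among them Acsl5 with Zdhhc6, Acsm5 with Pdilt, Acadvl with Dvl2 and Echs1 with Paox. The libraries held 60326469 to 76164949 estimated counts, worth about 4 per fragment, and no 2 libraries had identical values.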

How the data were processed

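The members and lists were chosen with earlier results of these data known. Per the file headers, the deposited table gives 1 FPKM value and 1 estimated count per gene and library. The FPKM values were scaled by the authors to transcript length and depth. The deposited estimated counts are whole numbers, worth about 4 per fragment. Tools listed in the submitters' processing notes, with neither role nor order, are StringTie 1.3.4d, HISAT2 2.0.4, edgeR, cutadapt 1.9, DESeq2 and UMI-tools. The notes also list the build mm9, but 30 of the 32 members have the coordinates of GENCODE M21 on GRCm38, the build used here. Per the labels' protocols the libraries mark strand (dUTP); how counting used strand or shared reads is not given here.

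Counts were rounded, which left them as they were, and tested in edgeR 4.0.16 (R 4.3.3): filterByExpr, TMM, robust quasi-likelihood F-tests, two-sided, with no covariate and Benjamini-Hochberg adjustment over 18931 genes at 0.05. SE is the absolute log2 fold change over the square root of F. The script was tested on simulated data. Members called are read beside the share of all genes called. All 32 members are named, and those with an unadjusted p under 0.05, those called without WT 8, and Cpt1a, Ppargc1a and Bdh1 are given by library. Of each pathway list the 4 genes with the smallest p and Ppara, and of marker lists the 2 most abundant genes, are named; the periportal list is given without 1 gene that is not reported here, a choice made after the data were seen, and its leading genes are not named. Alternatives were other scalings, no filter, DESeq2 1.42.0, voom and limma 3.58.1 on log2(FPKM + 1) or log2(FPKM + 0.1), counts divided by 4, and leaving out each library. P-values measure the spread between 3 libraries a group, which may be technical, since no label states that each came from its own mouse.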

Additional observations from a re-analysis of the deposited data

How the results depend on the processing

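The distance between the median of the members and that of all genes, 0.52 in the report, kept its sign in all 14 alternatives, from 0.33 without WT 8 to 0.60 without WT 6. Calls moved more. DESeq2 called 1399 genes higher and 1723 lower and, of the members, 12 higher and 1 lower. Voom with library quality weights called 1023 and 1006 genes and 9 and 1 members, with 2 members lower at an unadjusted p under 0.05, beside 16.6% of all genes. Library totals gave 35 and 125 genes, log2(FPKM + 1) 39 and 94, log2(FPKM + 0.1) 59 and 221, no filter 105 and 91 and counts divided by 4 43 and 40, with 0 members called in each. Members at an unadjusted p under 0.05 were 8 higher and 2 lower with library totals and 10 and 2 with either pseudocount, beside 4.41% and 23.7% of all genes with a pseudocount of 1 and 4.44% and 26.3% with 0.1. Leaving out 1 library gave 0 to 522 genes higher and 0 to 375 lower, 0 to 8 members called higher and 0 to 1 lower, and 8 to 19 higher and 1 to 2 lower at an unadjusted p under 0.05, beside 6.79% to 13.6% and 9.02% to 16.5% of all genes.

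Of the members' log2 fold changes, 22 changed sign under an alternative, all in 7 genes that were not called. Cpt1a was at 0.0011 with DESeq2's size factors and in DESeq2, and between -0.28 and 0.16 leaving out 1 library. Acsl1 was at -0.052 with library totals, -0.14 with voom, and between -0.16 and 0.58 leaving out 1 library. Eci2 was at -0.075 with library totals, -0.044 with voom, -0.025 with either pseudocount, and between -0.082 and 0.41 leaving out 1 library. Acsm3 was at -0.011 and Hadhb at -0.049 with library totals, and Hadhb at -0.033 and -0.034 with the pseudocounts of 1 and 0.1. Acot13 was at -0.136 with library totals, -0.136 with a pseudocount of 1 and -0.138 with 0.1. Ppargc1a lay between -0.31 and 0.072 leaving out 1 library. The cause of these moves was not tested. No paired analysis was possible because the groups share no replicate number.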
